A study of Mus musculus with 24 samples.

Results

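Mitochondria are kept in shape by a balance of joining and splitting, are removed when damaged, and are replaced by new growth. Expression of 10 genes that carry out or direct these steps was followed in MIN6 cells. They were Mfn1, Mfn2 and Opa1 (fusion), Dnm1l and Fis1 (fission), Pink1 and Bnip3 (mitophagy), and Tfam, Nrf1 and Ppargc1a (biogenesis). The genes were picked by symbol for their known roles, with earlier results of these data known, and all 10 were found among the 17696 genes of the count table.

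MIN6 is a mouse insulinoma line used as a model of the pancreatic β cell. Poly(A) RNA was sequenced from 24 libraries in 6 groups of 4, to ask how the microRNA miR-146a-5p and inflammation change gene expression. Scr cells carried a lentiviral vector with a scrambled sequence, ZIP cells an antisense inhibitor of miR-146a-5p, and OE cells a vector that overexpresses it. Each line was kept untreated or received IL-1β at 5 ng/mL, IFNγ at 100 ng/mL and TNFα at 10 ng/mL for 24 h (Scr+Cy, ZIP+Cy and OE+Cy). All groups had passed puromycin selection, and the lines were grown from single picked clones, so that the vector and the clone cannot be told apart. The OE vector also had another backbone and reporter than the Scr and ZIP vectors. Nothing states that replicates were separate cultures, so the p-values measure the spread between these libraries, which may be technical. The sample titles carry a tag for each replicate number that all 6 groups share, and its meaning is not given in the sources used here. Libraries of the same group differed beyond counting noise, with chi-square values of 7.37 to 56.9 per degree of freedom.

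Each library held about 26657800 to 37168200 reads assigned to genes. Levels are given as CPM, a gene's reads scaled to a common library total. β cell markers were abundant in all libraries (Ins2 8501 to 19882 CPM), while the fat and acinar markers reached at most 0.186 and 0.210 CPM and summed muscle markers 2.01 CPM. Summed markers of stroma and endothelium reached 34.9 CPM in Scr+Cy and 33.5 CPM in ZIP, in replicate 1 of each, and summed blood and immune markers reached 11.04 CPM in ZIP+Cy, in replicate 3. In the other groups those sums were at most 10.8 and 1.92 CPM. Summed nerve markers were highest, at 164 CPM, in replicate 1 of Scr+Cy. Calls among the 10 genes that changed without these 3 libraries are given both ways. The summed markers of other islet cells (Gcg, Sst and Ppy) were 246 to 369 CPM in Scr, 45.9 to 56.0 in OE and 8.94 to 34.7 in OE+Cy, and those of β cells 22838 to 30091 CPM in Scr and 46725 to 50425 in OE. Their part in the OE results was not tested. Mature miR-146a-5p is not captured in poly(A) libraries and was not analysed here.

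MFN1 and MFN2 are outer membrane GTPases that tether neighbouring mitochondria, and OPA1 fuses their inner membranes. DRP1, the product of Dnm1l, is recruited from the cytosol to constrict the organelle, and FIS1 is an outer membrane protein associated with this step. PINK1 builds up on depolarized mitochondria and marks them for removal, whereas BNIP3 is a mitophagy receptor whose gene is induced by low oxygen. PGC-1α (Ppargc1a) coactivates NRF1 and other factors that drive nuclear genes for mitochondria, among them Tfam, whose product packages and transcribes mitochondrial DNA. In β cells these steps bear on ATP production and thereby on insulin secretion.

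The microRNA that was manipulated is shown because a seed match is the first thing to look for in a candidate target. Its seed, bases 2 to 8, is in capitals.
mmu-miR-146a-5p: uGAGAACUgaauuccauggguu
The mature sequence lies at chr11:43374435-43374456 on the minus strand (RefSeq, GRCm38.p6). The complement of the seed, AGTTCTC, was searched on the sense strand of the longest annotated 3′ UTR of each gene (GENCODE M21). It was found in 0 of the 10 genes, whose 3′ UTRs were 220 to 3930 bases long. Among 15452 genes of the table with a 3′ UTR, of median length 1126 bases, 1878 (12.2%) held it. Irak1 and Traf6, long known as targets, held 2 and 4 matches. The absence of these letters says nothing of sites elsewhere in the transcripts. Matches to fewer bases of the seed, in the same 3′ UTRs, were not searched.

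Across the 6 groups the 10 genes differed widely in how much they moved. Bnip3 varied most, with group means spanning 7.63-fold. Ppargc1a followed with 2.76-fold, Dnm1l with 2.39-fold and Mfn2 with 2.19-fold. Nrf1 spanned 1.51-fold, and the remaining 5 genes spanned 1.36-fold or less. Fis1 had the narrowest range, 1.11-fold.

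**Figure D1:**
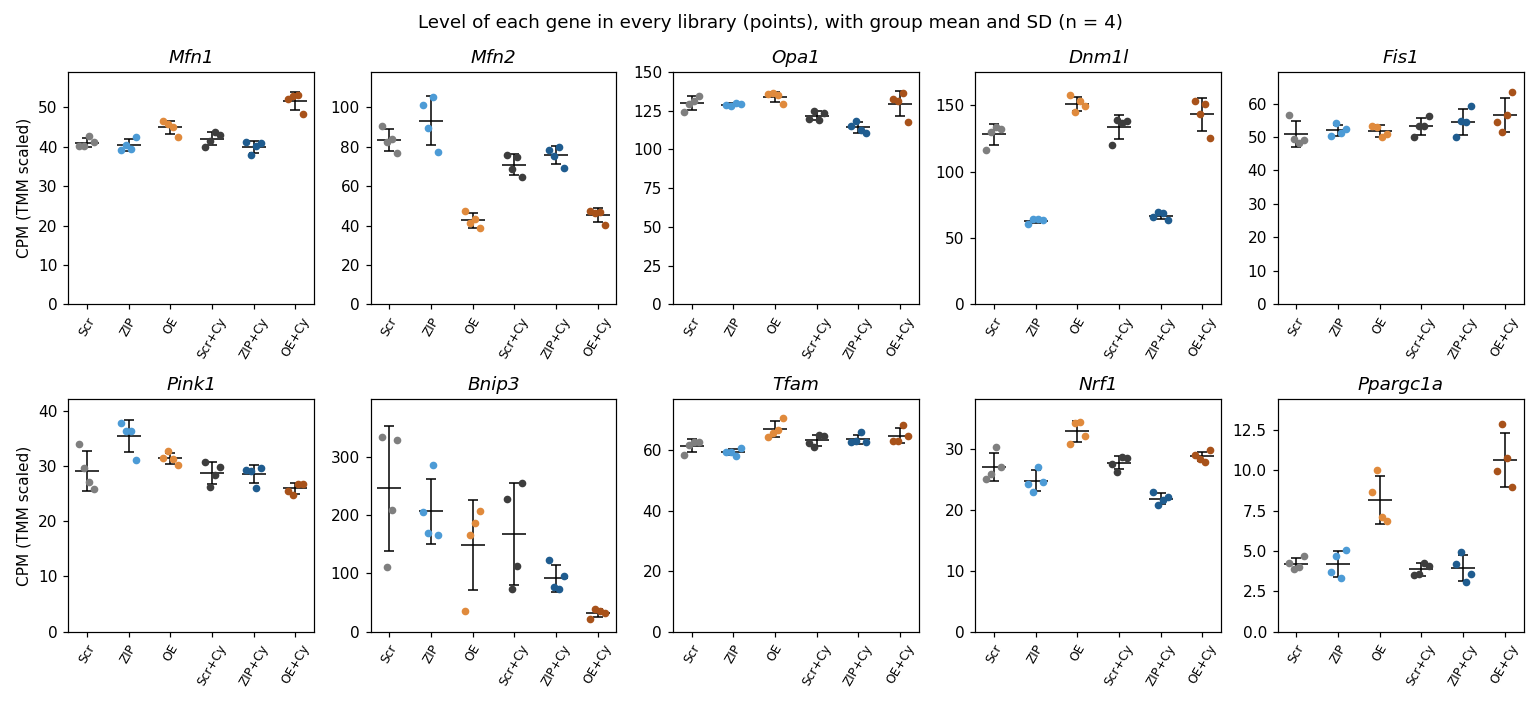
CPM, scaled by the trimmed mean of M values (TMM), on linear axes from 0, for each of the 10 genes in 24 libraries. Points are libraries, horizontal marks are group means and bars are SD (n = 4). Dnm1l was near 63.3 CPM in ZIP against 128 CPM in Scr, Mfn2 was lowest in both OE groups, and Bnip3 scattered widely within groups.

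The first question was how the ZIP and OE lines differed from Scr without cytokines. In ZIP against Scr, 2 of the 10 genes passed edgeR's quasi-likelihood test at an adjusted p under 0.05, against 28.3% of all genes tested. Dnm1l fell and Pink1 rose. In OE against Scr, 6 of the 10 genes were called, against 50.1% of all genes. Mfn2 fell, and Mfn1, Dnm1l, Tfam, Nrf1 and Ppargc1a rose. The share among genes at least as highly expressed as the lowest of the 10 was 35.2% for ZIP and 61.0% for OE, so neither count stood far from its background.

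**Figure D2:**
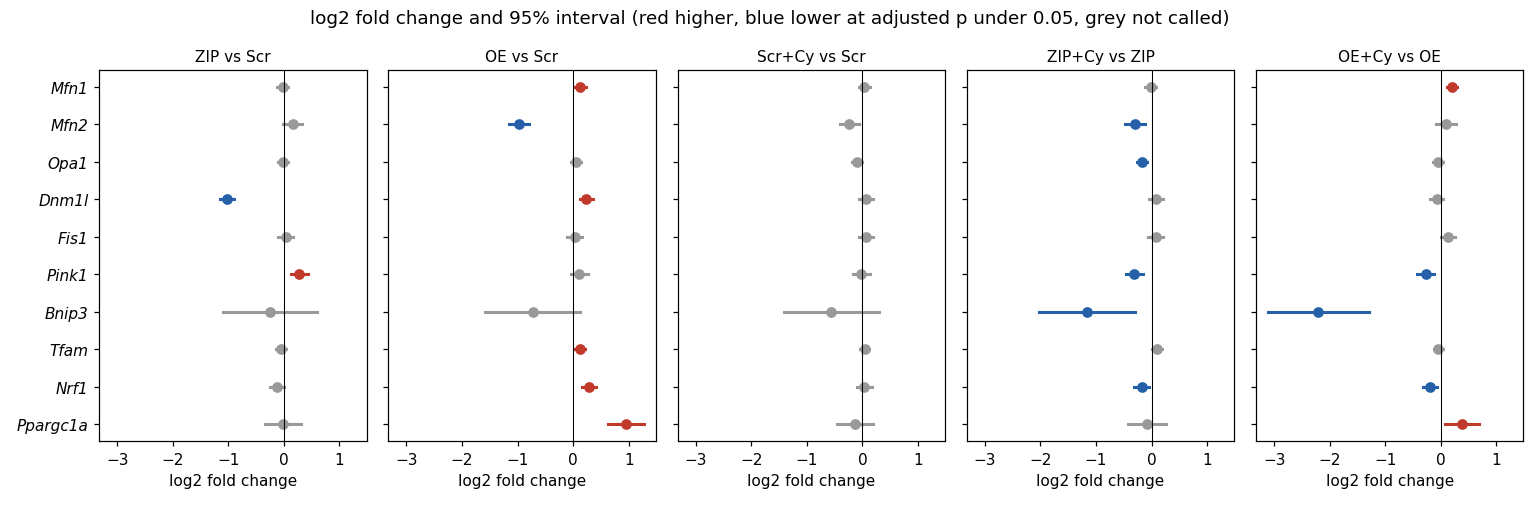
The log2 fold change of each gene in 5 comparisons, with 95% intervals from the edgeR fit. Red marks genes called higher, blue genes called lower and grey genes that did not pass. The called values farthest from 0 were those of Bnip3 after cytokines in OE (-2.20) and ZIP (-1.17), then Dnm1l in ZIP (-1.02), and Mfn2 (-0.97) and Ppargc1a (0.95) in OE.

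Mfn2 (chr4:147873586-147904909, minus strand, mm10) encodes mitofusin 2, which joins outer membranes and also links mitochondria to the endoplasmic reticulum. In Scr its level was 90.6, 82.6, 83.7 and 77.0 CPM. In OE it was 47.2, 41.1, 43.5 and 38.5 CPM. All OE libraries lay below all Scr libraries. The log2 fold change was -0.97 (SE 0.09, adjusted p = 1.01e-09), which is 1.96-fold lower. In ZIP the level was 101, 89.3, 105 and 77.3 CPM, which overlapped Scr (log2 fold change 0.16, 95% interval -0.01 to 0.33, adjusted p = 0.166).

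Cytokines lowered Mfn2 in ZIP, and in Scr once pairs were taken into account. In Scr+Cy it was 76.0, 68.5, 74.8 and 64.6 CPM, below every Scr library. The difference of -0.23 (SE 0.08) missed the threshold when replicate numbers were ignored (adjusted p = 0.0565) and passed it with the replicate block (adjusted p = 3.46e-04). It also passed without Scr replicate 4 or Scr+Cy replicate 1 (adjusted p = 0.0433 and 0.0447), and without the 3 libraries with markers of other tissues (-0.28, adjusted p = 0.0340). In ZIP+Cy it was 78.6, 75.3, 80.1 and 69.3 CPM and was called lower than ZIP, by -0.30 (SE 0.08, adjusted p = 0.00972). In OE+Cy it was 47.4, 46.5, 47.1 and 40.4 CPM and overlapped OE (log2 fold change 0.09, adjusted p = 0.425). Treated cells thus had less Mfn2 than the untreated library of the same number in 4 of 4 Scr and 4 of 4 ZIP pairs, and more in 4 of 4 OE pairs. The response in OE differed from that in Scr by 0.32 on the log2 scale (SE 0.12), with an adjusted p of 0.0598 without and 5.48e-04 with the replicate block. Leaving out Scr replicate 4, OE replicate 1, Scr+Cy replicate 1 or OE+Cy replicate 4 gave 0.0332 to 0.0467. Leaving out the 3 libraries with markers of other tissues gave 0.38 (adjusted p = 0.0356). Under cytokines OE+Cy remained below Scr+Cy, by -0.65 (SE 0.09, adjusted p = 7.94e-07).

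Genes around Mfn2 were lower in OE as well. Of 60 other genes within 5 Mb with a mean of at least 5 CPM, 36 were called lower and 3 higher, with a median log2 fold change of -0.36. Of all 17696 genes, 50.1% were called in this comparison, 4527 lower and 4342 higher, and of the 10674 genes at least as highly expressed as the lowest of the 10, 3302 were lower and 3208 higher. The median over the 698 such genes of chromosome 4 was -0.16. At -0.97 Mfn2 lay below most of its neighbours, of which 7 were at least as low.

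Mfn1 (chr3:32529482-32579225, plus strand), the other mitofusin, was steady in Scr at 40.2, 40.2, 42.8 and 41.1 CPM. In OE it was 46.4, 45.8, 44.9 and 42.4 CPM, and in OE+Cy 52.0, 52.8, 53.2 and 48.3 CPM. Every OE+Cy library was above every OE library. Mfn1 was called higher in OE than in Scr by 0.13 (SE 0.05, adjusted p = 0.0255) and in OE+Cy than in OE by 0.20 (SE 0.05, adjusted p = 0.00112). The first of these calls was lost without replicate 1 or 2 of either line, with adjusted p between 0.0551 and 0.0750. The mitofusins thus moved in opposite directions in OE, Mfn1 1.09-fold higher and Mfn2 1.96-fold lower. ZIP and ZIP+Cy, at group means of 40.4 and 40.0 CPM, did not pass any test against Scr, Scr+Cy or each other.

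Opa1 (chr16:29579334-29654602, plus strand) had group means between 114 and 134 CPM. It was 129, 128, 130 and 129 CPM in ZIP and 115, 119, 112 and 111 CPM in ZIP+Cy, with no overlap. The fall of 0.17 on the log2 scale (SE 0.04) passed the test, with an adjusted p of 0.00425. In Scr the treated library was lower in 4 of 4 pairs, by 1.03 to 1.11-fold, and the change of -0.09 was not called (adjusted p = 0.159).

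Dnm1l (chr16:16312228-16359031, minus strand) encodes DRP1, the GTPase that divides mitochondria. Its level was 117, 130, 133 and 132 CPM in Scr, and 60.9, 64.1, 64.7 and 63.3 CPM in ZIP. The ZIP libraries lay within a few CPM of each other, far below those of Scr. The log2 fold change was -1.02 (SE 0.06, adjusted p = 4.70e-12), or 2.03-fold lower. Under cytokines the same gap was seen, with 120, 139, 136 and 139 CPM in the treated Scr libraries and 65.8, 69.4, 68.6 and 63.5 CPM in ZIP+Cy (95% interval of the log2 fold change -1.13 to -0.87, adjusted p = 6.19e-12).

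The genes beside Dnm1l were lower in ZIP to a like degree. From Parn, 2.73 Mb on one side, to Scarf2, 1.47 Mb on the other, 40 other genes had a mean of at least 5 CPM. In ZIP against Scr, 37 of these 40 genes were called lower, 1 (Klhl22) was called higher and 2 did not pass, where 28.3% of all genes were called and 2617 of 17696 were lower. Their median log2 fold change was -0.92 and the quartiles were -1.03 and -0.81, so the value of Dnm1l (-1.02) was near the lower quartile. The gene next to Dnm1l, Yars2, which charges the mitochondrial tyrosine tRNA, was at -1.02. Outside the stretch the pattern ended. The 43 other genes within 5 Mb had a median of 0.01, and all 315 other genes of the chromosome, these included, one of -0.0048. The same stretch was lower in ZIP+Cy against Scr+Cy (37 of 40 called lower, median -0.92) and not in ZIP+Cy against ZIP (5 of 40 called lower, 4 higher, median 0.02). The ends of the stretch were read off after its values were seen, and they are given with no test of their own. DNA copy number of the clones was not analysed here, and its part in the Dnm1l result was not tested.

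**Figure D3:**
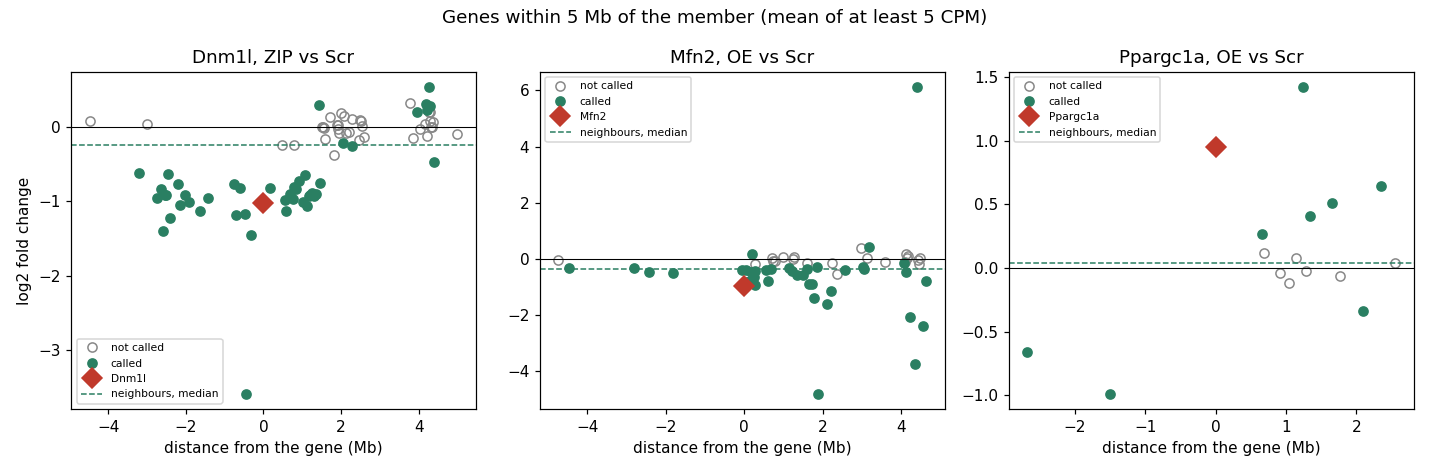
The log2 fold change (vertical axis) of genes with a mean of at least 5 CPM by distance in Mb from Dnm1l in ZIP, and from Mfn2 and Ppargc1a in OE, each against Scr. Filled circles are called genes, open circles are not, diamonds are the named gene and dashed lines are the neighbours' medians (-0.25, -0.36 and 0.04). A run of genes around Dnm1l sat near -0.92, with genes near 0 on both sides.

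In OE, Dnm1l was 158, 145, 153 and 150 CPM, above every Scr library (log2 fold change 0.24, SE 0.06, adjusted p = 0.00170). The 40 genes of the same stretch had a median of 0.16 in that comparison. Cytokines did not change Dnm1l by a called amount in any line, with log2 fold changes of 0.06 in Scr, 0.08 in ZIP and -0.08 in OE. The 95% intervals of these changes lay between -0.20 and 0.21.

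Fis1 (chr5:136953275-136966234, plus strand) was the steadiest of the 10 genes. The lowest group mean was 50.9 CPM (Scr) and the highest 56.5 CPM (OE+Cy), and neighbouring groups in this order overlapped. No comparison was called, and the largest difference was 0.13 on the log2 scale, in OE+Cy against OE (95% interval -0.0043 to 0.26, adjusted p = 0.111).

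The second question was what cytokines did in each line. In Scr+Cy against Scr, 0 of the 10 genes passed edgeR's test at an adjusted p under 0.05, against 17.8% of all genes. At an unadjusted p under 0.05, 2 genes passed (Mfn2 and Opa1), DESeq2 called 1 (Mfn2), and 1 was called with the replicate block (Mfn2). With the block, 22.6% of all genes were called. In ZIP+Cy against ZIP, 5 were called, all lower, against 26.4% of all genes. These were Mfn2, Opa1, Pink1, Bnip3 and Nrf1. In OE+Cy against OE, 5 were called, against 44.6%, with Mfn1 and Ppargc1a higher and Pink1, Bnip3 and Nrf1 lower. All 3 comparisons use their own untreated libraries.

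Bnip3 (chr7:138890836-138909506, minus strand) gave the largest change of the 10 genes and also the largest scatter. Its level was 334, 111, 209 and 330 CPM in Scr and 227, 73.4, 113 and 255 CPM in Scr+Cy. In ZIP it was 205, 169, 285 and 166 CPM, and in ZIP+Cy 122, 76.1, 72.9 and 95.2 CPM. In OE it was 34.8, 166, 186 and 207 CPM, and in OE+Cy 22.2, 39.5, 35.1 and 32.2 CPM. Replicate 1 of OE lay far below the other OE libraries and within the range of OE+Cy. Treated and untreated libraries overlapped in Scr and OE and were separate in ZIP.

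Bnip3 was lower in the treated library in 12 of 12 pairs of the same replicate number. The level dropped 1.29 to 1.84-fold in Scr pairs, 1.67 to 3.91-fold in ZIP pairs and 1.56 to 6.43-fold in OE pairs. In the edgeR fit the log2 fold change was -2.20 in OE+Cy against OE (SE 0.44, adjusted p = 2.04e-04). It was -1.17 in ZIP+Cy against ZIP (SE 0.42, adjusted p = 0.0404) and -0.56 in Scr+Cy against Scr (SE 0.41, adjusted p = 0.407). With the replicate block in a fit of Scr and Scr+Cy alone, the change in Scr was -0.59 with an adjusted p of 8.57e-07, while the block in the fit of all 6 groups gave an adjusted p of 0.356. The ZIP call was lost without ZIP replicate 1 or 3, or ZIP+Cy replicate 2, 3 or 4 (adjusted p between 0.0652 and 0.118), and was 8.77e-05 in the 2-group fit with the block.

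Whether Bnip3 fell further in OE than in Scr was close to the threshold. The difference of the responses was -1.65 on the log2 scale (SE 0.59, adjusted p = 0.0519), and -1.61 with the replicate block (adjusted p = 0.0460). Without replicate 1 of OE it was -1.97 (adjusted p = 0.00563), and without Scr replicate 1 or 4 or Scr+Cy replicate 2 or 3 it also passed (adjusted p between 0.0239 and 0.0441). The corresponding difference for ZIP was -0.61 (95% interval -1.82 to 0.59, adjusted p = 0.922). Between lines under cytokines, OE+Cy was below Scr+Cy without overlap, by -2.37 (SE 0.44, adjusted p = 7.18e-05). ZIP+Cy lay below Scr+Cy by -0.87 (adjusted p = 0.128), which became -0.73 with an adjusted p of 0.00494 under the replicate block in a fit of those 2 groups and not called with the block in the fit of all groups (adjusted p = 0.142). Untreated OE did not differ from Scr by a called amount (-0.73, 95% interval -1.58 to 0.12, adjusted p = 0.149), and the value was -0.40 (adjusted p = 0.372) without OE replicate 1.

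**Figure D4:**
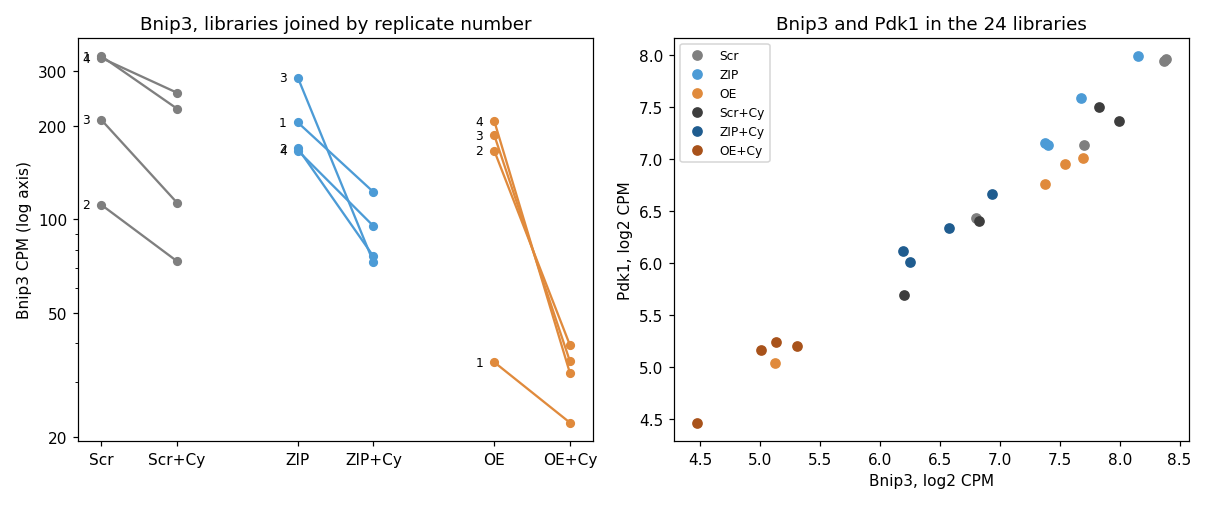
Left, Bnip3 CPM on a log axis in untreated and cytokine-treated libraries of each line, joined by replicate number. Right, log2 CPM of Bnip3 against Pdk1 in the 24 libraries, coloured by group. All 12 lines on the left run downwards, and the 24 points on the right lie along one line (Pearson r = 0.985).

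Over the 24 libraries, the 3 genes whose log2 CPM was most like that of Bnip3 among 10879 candidates were Fam162a (Pearson r = 0.990), Pgk1 (0.986) and Pdk1 (0.985). Pgk1 encodes a glycolytic kinase, and Pdk1 the kinase that holds back pyruvate dehydrogenase. After the group means were removed, r was 0.978, 0.967 and 0.983, so the scatter among replicates was shared. In replicate 1 of OE, Pdk1 was at 32.8 CPM against 108 to 129 CPM in the other OE libraries, and Pgk1 at 206 CPM against 441 to 490 CPM. These correlations describe 24 libraries that share lines, depth and treatment, and carry no p.

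A list of 10 targets of the oxygen-sensing factor HIF-1 gave the setting. In OE+Cy against OE, 5 of the 10 targets were called lower and 0 higher, with a median of -0.65, and in ZIP+Cy against ZIP again 5 lower and 0 higher, with a median of -0.89. The medians over all genes tested were 0.02 and -0.0066, and 3811 and 2267 of the 17696 genes were called lower. Counted in either direction, 50% of the targets were called in each, against 57.6% and 34.5% of genes at least as highly expressed as the lowest of the 10. Vegfa, which encodes an angiogenic factor, was lower by -0.59 in OE (adjusted p = 1.35e-06) and -0.61 in ZIP (adjusted p = 2.065e-06). In Scr+Cy against Scr 1 of 10 was called lower, Vegfa at -0.38, and the median was -0.45, where 17.8% of all genes were called and 1298 of 17696 were lower. In OE+Cy against Scr+Cy, where Bnip3 was lower, the targets went both ways, with 3 lower (Egln3, Pdk1 and P4ha1) and 2 higher (Ndrg1 at 0.53 and Adm at 2.67, adjusted p = 0.00213 and 4.81e-04). These 5 are 50% of the list, against 53.4% of all genes and 63.5% of genes at least as highly expressed as the lowest of the 10. Over the 24 libraries, r with Bnip3 ranged among the 10 targets from -0.13 (Car9) to 0.985 (Pdk1). It was -0.03 for Ndrg1, -0.02 for Adm and 0.08 for Bhlhe40. After the group means were removed, r ranged from -0.14 (Car9) to 0.983 (Pdk1). It was then 0.76 for Ndrg1, 0.75 for Adm and 0.50 for Bhlhe40, so these 3 shared the scatter of Bnip3 among replicates. Oxygen and culture density were not recorded in the sources used here, and their part in the Bnip3 scatter was not tested.

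The promoters of Bnip3 and its most alike genes were searched for ACGTG, the core of the HIF-binding element, on both strands from 250 bases before to 50 after each RefSeq start (GRCm38.p6). Stretches upstream of 3 of them are shown, since these genes moved together across the libraries. Capitals mark the matches.
Bnip3: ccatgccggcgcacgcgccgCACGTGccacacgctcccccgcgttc
Pgk1: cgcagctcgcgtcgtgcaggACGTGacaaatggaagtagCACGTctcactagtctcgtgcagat
Fam162a: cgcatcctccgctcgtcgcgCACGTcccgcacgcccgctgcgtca
These lie at chr7:138909589-138909634 (minus strand), chrX:106186930-106186993 (plus) and chr16:36071618-36071662 (minus). In Bnip3 the palindrome CACGTG, read as a match on each strand, began 108 bases before the start. In Pgk1 the 2 matches began 150 and 131 bases before it, and in Fam162a the single match 81 bases before it. The windows at the 2 starts of Pdk1 held none. Of 17365 promoter windows in all, 23.5% held these letters, and among the other 9 genes only windows of Mfn2 and Ppargc1a did. A match is a description of the sequence and not evidence of binding.

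Pink1 (chr4:138313410-138326296, minus strand), the kinase that marks damaged mitochondria, changed less. It was 34.1, 29.7, 27.0 and 25.9 CPM in Scr and 37.8, 36.4, 36.4 and 31.1 CPM in ZIP, with overlap between the groups. ZIP was called higher by 0.28 (SE 0.07, adjusted p = 0.00633). With cytokines it was 29.3, 29.1, 26.1 and 29.6 CPM in ZIP+Cy, below every ZIP library (-0.31, SE 0.08, adjusted p = 0.00320). It was 31.5, 32.7, 31.3 and 30.3 CPM in OE and 25.4, 24.8, 26.8 and 26.8 CPM in OE+Cy, again without overlap (-0.28, SE 0.08, adjusted p = 0.00427). In Scr the change was -0.02 (95% interval -0.17 to 0.14). The response was lower than in Scr by -0.29 in ZIP and -0.26 in OE, with adjusted p of 0.625 and 0.0958 (0.0159 in OE without Scr replicate 1), so a difference between lines was not shown.

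The ZIP cytokine comparison had fewer calls, and fewer libraries in both groups, without the 3 libraries with markers of other tissues. Without them 2 genes were called, Mfn2 (-0.29, adjusted p = 0.0413) and Opa1 (-0.17, adjusted p = 0.0345). Pink1 (-0.24, adjusted p = 0.0561), Bnip3 (-1.08, adjusted p = 0.141) and Nrf1 (-0.19, adjusted p = 0.104) kept their direction and were not called. Leaving out any 1 library of this comparison gave 3 to 5 calls. Whether the markers or the smaller groups lay behind the lost calls was not tested.

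Ppargc1a (chr5:51454249-51567725, minus strand) encodes PGC-1α and had the lowest mean CPM of the 10 genes, not corrected for length. It was 4.29, 3.91, 4.00 and 4.71 CPM in Scr and 8.67, 10.0, 7.09 and 6.84 CPM in OE. Every OE library lay above every Scr library. The log2 fold change was 0.95 (SE 0.15, adjusted p = 1.45e-05), or 1.93-fold higher. In ZIP it was 3.70, 4.70, 3.32 and 5.04 CPM, on both sides of the Scr values (-0.01, 95% interval -0.34 to 0.32).

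With cytokines Ppargc1a was called in OE. OE+Cy was at 9.97, 12.9, 10.8 and 8.99 CPM, higher than the same-numbered OE library in 4 of 4 pairs by 1.15 to 1.52-fold. The change of 0.38 (SE 0.15, adjusted p = 0.0387) was lost without OE replicate 3 or 4 or OE+Cy replicate 2 or 3 (adjusted p between 0.0808 and 0.181). Its difference from the Scr response was 0.51 (SE 0.22, adjusted p = 0.103, and 0.0395 without OE replicate 2). Against Scr+Cy, at 3.51, 3.58, 4.29 and 4.05 CPM, OE+Cy was 2.76-fold higher (log2 fold change 1.46, SE 0.16, adjusted p = 2.52e-08). Of 15 other genes within 5 Mb, 5 were called higher and 3 lower in OE against Scr (50.1% of all genes were called), with a median of 0.04, and 1 was at least as high as Ppargc1a.

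The genes whose levels were most like those of Ppargc1a over the 24 libraries included 1700019D03Rik and Stx3, each with Pearson r = 0.94. Stx3, a syntaxin of the secretory pathway, had a mean of 30.9 CPM in Scr, 55.0 in OE and 76.3 in OE+Cy. Like Ppargc1a, both had their highest mean in OE+Cy and the next in OE. These correlations were the highest 2 among 10879 candidates and describe libraries that share lines and treatment.

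Nrf1 (chr6:30047988-30153458, plus strand) encodes nuclear respiratory factor 1. It was 25.1, 25.9, 30.3 and 27.0 CPM in Scr and 30.8, 34.3, 34.5 and 32.2 CPM in OE, without overlap (0.28, SE 0.06, adjusted p = 4.02e-04). With cytokines it fell to 29.1, 28.4, 27.9 and 29.8 CPM in OE+Cy (-0.19, SE 0.06, adjusted p = 0.0115). In ZIP it was 24.3, 23.0, 27.2 and 24.7 CPM, and in ZIP+Cy 23.0, 20.9, 21.6 and 22.1 CPM (-0.18, SE 0.06, adjusted p = 0.0346). The treated library was lower in 4 of 4 pairs in both lines. In Scr the change was 0.04 (95% interval -0.09 to 0.16), and the response in OE differed from it by -0.23, with an adjusted p of 0.0616 without and 0.0329 with the replicate block. Without Scr replicate 3, OE replicate 1 or OE+Cy replicate 4 it was 0.00967 to 0.0422. The ZIP call was lost on leaving out any of ZIP replicates 3 and 4 and ZIP+Cy replicates 2, 3 and 4 (adjusted p between 0.0534 and 0.129).

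Tfam (chr10:71225477-71238044, minus strand), the mitochondrial DNA packaging factor, changed little. It was 58.5, 61.9, 62.9 and 62.8 CPM in Scr and 64.4, 65.8, 66.8 and 70.6 CPM in OE. OE was called higher by 0.12 (SE 0.04, adjusted p = 0.0176), or 1.09-fold, a call lost without Scr replicate 1 or OE replicate 4 (adjusted p = 0.0695 and 0.0781). In ZIP+Cy against ZIP the difference was 0.10, with an adjusted p of 0.0917 without and 0.0477 with the replicate block, and 0.0627 with the block in a fit of those 2 groups. In OE the 3 biogenesis genes thus rose by different folds, Ppargc1a 1.93, Nrf1 1.22 and Tfam 1.09.

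The third question was how the lines compared under cytokines and whether their responses differed. In ZIP+Cy against Scr+Cy, 2 of the 10 genes were called, both lower, against 28.1% of all genes. They were Dnm1l and Nrf1, the latter at -0.35 (SE 0.06, adjusted p = 1.36e-04). In OE+Cy against Scr+Cy, 4 were called, against 53.4%, with Mfn1 (0.30, adjusted p = 1.08e-05) and Ppargc1a higher and Mfn2 and Bnip3 lower. Both comparisons share the Scr+Cy libraries. For the cytokine response in ZIP against that in Scr, 0 of the 10 genes passed edgeR's test, against 0.0565% of all genes, with 2 (Pink1 and Nrf1) at an unadjusted p under 0.05 and 0 by DESeq2. For the response in OE against that in Scr, 0 passed, against 20% of all genes, with 6 at an unadjusted p under 0.05, 3 by DESeq2 and 3 with the replicate block (Mfn2, Bnip3 and Nrf1). With the block, 25.4% of all genes were called. Less of a message in these bulk libraries cannot be told apart from fewer cells that make it.

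Other genes of the same processes were read from 7 lists and, with the HIF-1 targets above, the 8 lists held 90 genes, all found in the table. In ZIP against Scr 32 of the 90 were called (19 higher), and in OE against Scr 39 (21 higher). With cytokines 15 were called in Scr (7 and 8 without Scr+Cy replicate 2 or 3), 24 in ZIP and 40 in OE, and 18, 31 and 46 with the replicate block. Without the 3 libraries with markers of other tissues the 5 counts were 25, 37, 14, 19 and 39. The counts without the block or any omission are 35.6%, 43.3%, 16.7%, 26.7% and 44.4% of the lists, against 28.3%, 50.1%, 17.8%, 26.4% and 44.6% of all genes. Among genes at least as highly expressed as the lowest of the 10 main genes, the shares were 35.2%, 61.0%, 22.4%, 34.5% and 57.6%. With the replicate block, cytokines gave calls for 22.6% of all genes in Scr, 31.7% in ZIP and 48.4% in OE.

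**Figure D5:**
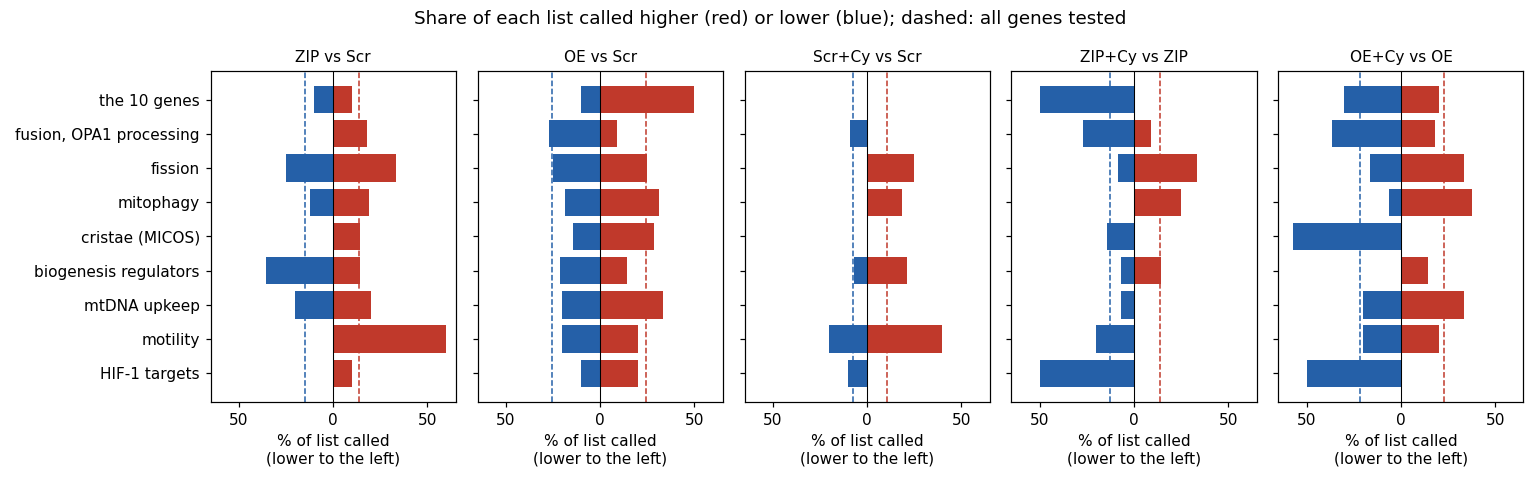
Percent of each list called higher (red, to the right) or lower (blue, to the left) in 5 comparisons. Dashed lines are the shares over all 17696 genes. In ZIP+Cy against ZIP and OE+Cy against OE, 50% of the HIF-1 targets were called lower.

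Among 11 partners of fusion and OPA1 processing, 4 (36.4%) were called in OE against Scr, where 50.1% of all genes were called. The difference between these shares was not tested. Oma1, a stress-activated protease that cleaves OPA1, fell from 10.8 to 7.04 CPM (-0.61, adjusted p = 1.095e-06), and Phb2, a prohibitin of the inner membrane, rose (0.48, adjusted p = 4.66e-09). Miga1, which promotes fusion at the outer membrane, fell with cytokines in all 3 lines, by -0.26 in Scr, -0.31 in ZIP and -0.45 in OE (adjusted p = 0.00465, 7.06e-04 and 2.68e-06). In ZIP the largest called change was in Spg7, a subunit of the inner membrane m-AAA protease, at 0.46 (adjusted p = 1.34e-05).

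Of 12 other fission genes, 7 were called in ZIP (4 higher) and 6 in OE (3 higher) against Scr. These are 58.3% and 50% of the list, against 28.3% and 50.1% of all genes. Inf2, a formin that builds actin at sites of division, had group means of 11.2 CPM in Scr, 5.58 in OE and 34.1 in OE+Cy. It was lower in OE (-1.01, adjusted p = 1.79e-06) and rose with cytokines in OE (2.61, adjusted p = 1.80e-13), ZIP (0.69, adjusted p = 4.75e-04) and Scr (0.43, adjusted p = 0.0260). Marchf5, a ubiquitin ligase that acts on DRP1 and mitofusins, rose with cytokines in all 3 lines, from 117 to 143 CPM in Scr (0.29, adjusted p = 3.65e-04), from 95.9 to 117 CPM in ZIP (0.28, adjusted p = 3.12e-04) and from 102 to 150 CPM in OE (0.57, adjusted p = 7.59e-09).

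Of 16 other mitophagy genes, cytokines raised 3 in Scr, 4 in ZIP and 6 in OE, and lowered 0, 0 and 1. The shares called in either direction were 18.8%, 25% and 43.8%, against 17.8%, 26.4% and 44.6% of all genes. Of all 17696 genes, 1853, 2407 and 4073 were called higher and 1298, 2267 and 3811 lower. The adaptor Sqstm1 (p62) went from 480 to 605 CPM in Scr, from 503 to 791 CPM in ZIP and from 644 to 1278 CPM in OE (log2 fold changes 0.33, 0.65 and 0.99). Optn, a receptor that links ubiquitin to the autophagosome, rose by 0.53 in ZIP and 0.94 in OE (adjusted p = 1.94e-05 and 1.03e-09). In ZIP and OE, Sqstm1 and Optn thus rose with cytokines where Bnip3 fell. Bnip3l, of the same list, went from 92.1 to 51.5 CPM in OE. In ZIP it went from 89.2 to 61.3 CPM and was not called.

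Of 14 other biogenesis regulators, 7 were called in ZIP and 5 in OE against Scr, or 50% and 35.7% against 28.3% and 50.1% of all genes. Perm1, known in muscle as a gene induced by PGC-1 and ERR, rose with cytokines from 2.21 to 4.29 CPM in Scr (0.95, adjusted p = 2.51e-05) and from 2.23 to 6.16 CPM in OE (1.46, adjusted p = 1.12e-08). In untreated ZIP it was already higher than in Scr, at 3.57 CPM (0.69, adjusted p = 7.885e-04), and ZIP+Cy was at 4.50 CPM. Ppargc1b, the relative of Ppargc1a, fell with cytokines by 0.55 in Scr (adjusted p = 0.00475) and by 0.74 in ZIP (adjusted p = 1.56e-04). In OE it was lower than in Scr, at 6.02 against 11.3 CPM (-0.91, adjusted p = 4.23e-06), and was 6.27 CPM in OE+Cy (0.06, adjusted p = 0.776). Ppara and Prkaa2, a lipid-sensing receptor and a catalytic subunit of AMPK, were lower in both ZIP and OE than in Scr but at group means of at most 2.42 CPM.

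Of 15 genes of mitochondrial DNA upkeep, 8 (53.3%) were called in OE+Cy against OE (5 higher), near the shares of all genes (44.6%) and of genes at least as highly expressed as the lowest of the 10 (57.6%). Among them was Lonp1, a matrix protease, from 108 to 177 CPM (0.71, adjusted p = 3.76e-05). Of 7 cristae genes, 4 were called lower and 0 higher in the same comparison, where 3811 of all 17696 genes and 3312 of the 10674 genes at least as highly expressed as the lowest of the 10 were lower. They were led by Apoo (-0.57, adjusted p = 0.00123). Apool, a MICOS subunit, was higher than in Scr in both ZIP (0.77) and OE (0.83), with adjusted p of 3.67e-05 and 5.47e-06.

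Among 5 genes of mitochondrial transport, 3 were called in ZIP against Scr, all higher, where 28.3% of all genes were called and 2396 of 17696 were higher. Snph, which anchors mitochondria in axons, went from 26.0 to 58.2 CPM (1.16, adjusted p = 1.70e-09). Trak1, an adaptor to kinesin, went from 74.8 to 124 CPM (0.73, adjusted p = 4.15e-09). Both gaps were also present under cytokines, at 1.02 and 0.79.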

How the data were processed

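The authors deposited estimated counts per gene for 24 libraries. Per the labels and the methods of the study, reads were quality checked with FastQC, aligned to mm10 with STAR and quantified in Partek Flow, and genes with fewer than 10 reads over all libraries were removed. The submitters' processing notes give STAR 2.7.8a and Partek 11.0.24.0204, and the methods other versions. Use of strand in counting is not given in the sources used here, so reads of overlapping genes cannot be told apart. Of the deposited expected counts, 30.3% were not whole, and all were rounded. The deposited table of normalized values was not used.

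Counts were fitted with edgeR 4.0.16 (R 4.3.3; TMM scaling, glmQLFit and glmQLFTest) in 1 model of 6 group means over all 17696 genes, with Benjamini-Hochberg adjustment over all genes and a call at an adjusted p under 0.05. Fold changes are on the log2 scale, first group minus second, and the SE follows from the F statistic. CPM are TMM scaled and not divided by length, so levels are not compared between genes. Log2 CPM used a prior count of 2. The fit was tested on simulated data.

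Alternatives were DESeq2 1.42.0, its size factors in edgeR, edgeR's expression filter (14535 genes), a fit of only the groups compared, a replicate block, a rule of 1.5-fold with an unadjusted p under 0.05 (for the difference of responses the p alone), and each library left out in turn. Leaving out the 3 libraries with markers of other tissues, the block without OE replicate 1 and the block in 2-group fits were added after the data were seen. Replicate numbers come from the sample titles. Deviations from group means of same-numbered libraries correlated over 0.1 in every pair (10889 genes) for each line's cytokine comparison (0.253 to 0.569) and for ZIP+Cy against Scr+Cy (0.157 to 0.413), and these were taken as paired. For the other comparisons a correlation was as low as -0.11, and they were not.

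The 10 genes and the lists were chosen with earlier results of these data known. Named list genes are the up to 2 per list and comparison with the largest called change, leaving out those under 1 CPM in both group means. For the 2 genes of widest range, the 3 most correlated genes with a mean of at least 5 CPM are named, except for items that are not reported here. Genes beside Dnm1l and other exceptions to this rule (Klhl22, Yars2, Parn, Scarf2, Vegfa, P4ha1, Ndrg1, Car9, Bhlhe40, Ppargc1b in OE, Marchf5 in Scr and ZIP, Irak1, Traf6 and the list genes named for a difference of responses) were chosen after their values were seen, or as known targets. Bnip3l, and Perm1 in ZIP, were also named after their values were seen. Promoter and miRNA sequences are RefSeq's, and all 10 genes were matched in the promoter table.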

Additional observations from a re-analysis of the deposited data

Results flagged for a closer look

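In 60 sets of 4 libraries (10 genes in 6 groups), 5 had 1 library far from the other 3, beyond Dixon's 95% critical value for 4 samples. Chance alone gives about 1 in 20. They were Dnm1l in Scr+Cy replicate 1 (120 CPM, lowest), Fis1 in Scr replicate 1 (56.6 CPM, highest), Mfn2 in OE+Cy replicate 4 (40.4 CPM, lowest), Pink1 in ZIP+Cy replicate 3 (26.1 CPM, lowest) and Tfam in ZIP+Cy replicate 3 (65.9 CPM, highest). Scr+Cy replicate 1 and ZIP+Cy replicate 3 are among the libraries with markers of other tissues.

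With cytokines Mfn2 was lower in 4 of 4 Scr pairs and higher in 4 of 4 OE pairs, and Dnm1l higher in 4 of 4 Scr pairs and lower in 4 of 4 OE pairs. In ZIP both moved as in Scr, Mfn2 lower and Dnm1l higher in 4 of 4 pairs. The difference of the OE and Scr responses was 0.32 for Mfn2, with an adjusted p of 0.0598 without and 5.48e-04 with the replicate block. For Dnm1l it was -0.14 (adjusted p = 0.282) and was not called with the block.

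For 16 of the 90 list genes the cytokine response in OE differed from that in Scr by edgeR's test (10 higher and 6 lower), and for 24 with the replicate block (12 higher and 12 lower). The 16 are 17.8% of the lists, against 20% of all genes and 28.6% of genes at least as highly expressed as the lowest of the 10. With the block, 25.4% of all genes were called. The difference was positive for Inf2 (2.18), Lonp1 (0.90), Optn (0.74), Esrra (0.71), Sqstm1 (0.66), Top1mt (0.61), Ppargc1b (0.60), Tax1bp1 (0.29), Marchf5 (0.28) and Dnm2 (0.26). It was negative for Apoo (-0.68), Yme1l1 (-0.32), Micos10 (-0.29), Tfb2m (-0.28), Trak2 (-0.26) and Nbr1 (-0.21). Inf2 codes for a formin, Esrra for an orphan nuclear receptor that works with PGC-1α, Top1mt for the mitochondrial topoisomerase and Tax1bp1 and Nbr1 for autophagy receptors.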

How the results depend on the processing

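Of 1520 alternative values for single genes of the 10, 1410 kept their direction and side of the threshold, 44 passed it newly, 29 no longer passed and 37 changed sign. No value with a changed sign was called, before or after (adjusted p of at least 0.613). With 4 libraries a group at this depth, changes as small as 1.09-fold were called.

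With the rule of 1.5-fold and an unadjusted p, the number of the 10 genes called was 1 in ZIP against Scr, 2 in OE against Scr, 1 in ZIP+Cy against ZIP, 1 in OE+Cy against OE, 2 in ZIP+Cy against Scr+Cy (Bnip3 in, Nrf1 out), 3 in OE+Cy against Scr+Cy (Mfn1 out), 0 in Scr+Cy against Scr, and 2 (ZIP) and 6 (OE) for the difference of responses. For the 90 list genes it was 8 in ZIP against Scr, 12 in OE against Scr, 1 in Scr+Cy against Scr, 10 in ZIP+Cy against ZIP, 13 in OE+Cy against OE, 8 in ZIP+Cy against Scr+Cy, 12 in OE+Cy against Scr+Cy, and 7 and 28 for the differences of responses in ZIP and OE. The share of all genes under this rule was not counted, so these counts have no background. Of the 10674 genes at least as highly expressed as the lowest of the 10, some passed 1.5-fold at an adjusted p under 0.05. Their numbers were 1006 in ZIP and 2041 in OE against Scr. With cytokines they were 663 in Scr, 858 in ZIP and 1837 in OE.

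In Scr+Cy against Scr, 1 of the 10 was called by DESeq2, in a fit of only those groups, with the replicate block and without the 3 libraries with markers of other tissues, and 2 with the block in the 2-group fit. The block called 22.6% of all genes in the fit of all groups and 31.1% in the 2-group fit. In ZIP+Cy against ZIP, 2 were called without the 3 libraries. For the response in OE against Scr, 3 were called by DESeq2, 3 with the replicate block, 3 with the block and OE replicate 1 left out, 1 with the expression filter and 1 without the 3 libraries. The cause was not tested.

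Leaving out 1 library gave 2 to 3 of the 10 genes in ZIP against Scr, 5 to 6 in OE against Scr, 0 to 1 in Scr+Cy against Scr (1 without Scr replicate 4 or Scr+Cy replicate 1), 3 to 5 in ZIP+Cy against ZIP (3 without ZIP replicate 3 or ZIP+Cy replicate 2, 3 or 4), 4 to 5 in OE+Cy against OE, 2 in ZIP+Cy against Scr+Cy, 4 to 6 in OE+Cy against Scr+Cy, and 0 to 3 for the response in OE against Scr (3 without OE replicate 1). The added calls were Mfn2 without ZIP replicate 4 in ZIP, Pink1 without Scr replicate 1 in OE, and, in OE+Cy against Scr+Cy, Opa1 and Dnm1l without OE+Cy replicate 4 and Pink1 without Scr+Cy replicate 2. For the list genes the ranges were 25 to 31, 32 to 39, 7 to 15, 16 to 24, 35 to 44, 22 to 26, 40 to 46, and 13 to 18 for the response in OE.

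In comparisons whose numbers did not pair the libraries, the replicate block gave 3 genes in ZIP against Scr, with Mfn2 added (adjusted p = 0.00825, and 0.0618 with the block in a fit of those 2 groups), 6 in OE against Scr and 4 in OE+Cy against Scr+Cy. In the same order, the block called 33.6%, 54.1% and 57.1% of all genes. Beyond the calls given in the text, the block changed no other call of the 10 genes in the fit of all groups. In fits of only the groups compared, Mfn1 and Tfam in OE lost their calls without (adjusted p = 0.0643 and 0.0723) and with the block (0.0759 and 0.0604), and Nrf1 in ZIP+Cy against ZIP without it (0.0924). Opa1 in OE+Cy against Scr+Cy was called by DESeq2, with its size factors and with the expression filter (adjusted p = 0.0126, 0.0300 and 0.0478). Scaling by DESeq2's size factors moved the median of all genes by at most 0.03.

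The changes of sign were in 16 log2 fold changes, whose reported size was 0.0834 at the largest. Leaving out 1 library gave, in ZIP against Scr, -0.049 to 0.017 for Mfn1, -0.031 to 0.018 for Opa1 and -0.12 to 0.090 for Ppargc1a. It gave -0.072 to 0.065 for Pink1 in Scr+Cy against Scr, and, in ZIP+Cy against ZIP, -0.033 to 0.010 for Mfn1 and -0.21 to 0.019 for Ppargc1a. In ZIP+Cy against Scr+Cy it gave -0.0034 to 0.094 for Fis1, -0.055 to 0.028 for Pink1, -0.011 to 0.027 for Tfam and -0.078 to 0.13 for Ppargc1a. For the difference of responses it gave, in ZIP, -0.15 to 0.0079 for Mfn2, -0.029 to 0.061 for Dnm1l, -0.047 to 0.060 for Fis1 and -0.066 to 0.15 for Ppargc1a, and, in OE, -0.0032 to 0.073 for Opa1 and -0.016 to 0.099 for Fis1. Without the 3 libraries with markers of other tissues, Ppargc1a was 0.041 in ZIP against Scr, Pink1 0.071 and Tfam -0.0057 in ZIP+Cy against Scr+Cy, and the ZIP response difference was -0.049 for Dnm1l and -0.023 for Fis1.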
